A study of Mus musculus with 7 samples.

Results

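The genes Ndn, Magel2, Mkrn3, Peg12 and Ube3a lie in the mouse counterpart of the Prader-Willi and Angelman region on chromosome 7. Their H3K27me3 reads over gene bodies were compared between postnatal day 12 (P12) and postnatal day 17 (P17). They were chosen by name, with the strong difference at Ndn already known, and all 5 were found among the 23530 gene entries of the count files. The cells were spermatocytes of wild-type CD1 mice, obtained by enzymatic digestion of testes and fractionation through Percoll. One H3K27me3 file was used per stage, so 2 of the 7 samples entered the comparison; the P17 file pooled 2 replicates per its label, and the number of animals is not given in the sources used here. Input, H3K4me3 and EED samples were not used here.

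Genomic imprinting restricts expression of a gene to the copy inherited from one parent. In somatic cells of the mouse, Ndn, Magel2, Mkrn3, Peg12 and the Snurf-Snrpn transcription unit are expressed from the paternal chromosome, and Ube3a is expressed mainly from the maternal one in neurons; male germ cells erase the inherited imprints and then set paternal ones. H3K27me3 is the repressive histone mark written by Polycomb repressive complex 2, the complex that the series title names in connection with soma-specific genes in male germ cells.

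With 1 library set per stage there was no replicate check and no test, and no p-value was computed. The gene-body counts of the P12 and P17 files summed to 13462873 and 26664736 reads. Each level is a read count scaled to the file total (CPM), and each log2 ratio is the P17 level over the P12 level after addition of 1 read, adjusted for library size, to both counts. Intervals are exact 95% intervals and cover counting error only. Higher and lower genes were those that differed by over 2-fold and whose interval did not include equal levels. Of the 21808 genes that had 20 or more reads, 2.57% were higher at P17 by this rule and 0.335% were lower. Over all these genes the log2 ratio had a median of -0.08, with the 10th and 90th percentiles at -0.34 and 0.47. Gene-body reads were not divided by gene length, so a level says nothing of how densely one gene is marked against another. No expression was measured, so the labelled cell type could not be checked against its markers. Input was not used. Because each stage had 1 library set, the stage, the efficiency of each immunoprecipitation and the mix of cells in each fraction cannot be told apart.

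H3K27me3 reads were higher at P17 over Ndn and Peg12, moderately higher over Magel2, and near the typical gene over Mkrn3. Over Ube3a they were slightly lower. The log2 ratios ran from 2.09 at Ndn to -0.27 at Ube3a, so the 5 genes did not move as a block. Because these ratios led to the choice of Ndn, they are given as a description.

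The sequences before the start sites of Ndn and Peg12, the members with the highest ratios, and of Ube3a, the member with the lowest, are shown for their different CpG content. The letters are the 250 bases before the annotated start from RefSeq (GRCm38.p6, not the mm9 build of the counts), read 5′ to 3′ along the gene's strand, with CpG dinucleotides in capitals. Ndn lies on the plus strand (chr7:62348027-62348276), Peg12 on the minus strand (chr7:62464511-62464760) and Ube3a on the plus strand (chr7:59228500-59228749).
Ndn: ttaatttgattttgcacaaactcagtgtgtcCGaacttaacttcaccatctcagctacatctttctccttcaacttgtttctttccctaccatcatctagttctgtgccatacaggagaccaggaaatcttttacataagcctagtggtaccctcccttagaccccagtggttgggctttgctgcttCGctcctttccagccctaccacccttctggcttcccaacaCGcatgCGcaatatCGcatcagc
Peg12: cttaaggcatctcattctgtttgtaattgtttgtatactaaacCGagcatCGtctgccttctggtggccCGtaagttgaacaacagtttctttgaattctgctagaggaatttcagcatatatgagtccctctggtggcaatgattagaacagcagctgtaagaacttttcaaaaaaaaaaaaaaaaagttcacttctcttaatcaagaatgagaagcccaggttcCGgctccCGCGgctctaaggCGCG
Ube3a: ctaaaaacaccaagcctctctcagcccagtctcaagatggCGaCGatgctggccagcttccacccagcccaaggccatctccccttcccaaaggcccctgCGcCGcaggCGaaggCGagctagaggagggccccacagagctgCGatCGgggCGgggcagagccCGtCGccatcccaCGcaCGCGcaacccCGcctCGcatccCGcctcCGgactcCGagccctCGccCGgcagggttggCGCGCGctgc

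The Ndn stretch held 5 CpGs, that of Peg12 held 8 and that of Ube3a held 24, against a median of 6 over 32851 promoter stretches of the same length. In Ndn, 4 of the 5 CpGs fell within the 100 bases nearest the start, and in Ube3a 16 of 24 did. The corresponding stretches of Magel2 and Mkrn3, which are not shown, held 7 and 10 CpGs. The GC content was 47.2% for Ndn, 42.0% for Peg12, 48.8% for Magel2, 52.0% for Mkrn3 and 70.0% for Ube3a, with a median of 52.4% over all stretches. Thus by CpG number in these stretches Ube3a alone among the 5 stood in the upper part of the range, at percentile 89.3, while Ndn stood at percentile 49.6. Bases after the start were left out, so CpGs there are not covered. The contrast was smaller for the CpG number relative to that expected from the C and G content. By that measure Ube3a stood at percentile 82.0, Peg12 at 75.2, Mkrn3 at 66.9, Magel2 at 57.6 and Ndn at 53.1.

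A search on both strands was made for 3 motifs chosen after the sequences had been seen. CGCATGCG, the core of the motif of the transcription factor NRF1, occurred in the Ndn stretch, with its first letter 23 bases before the start, and in 1.55% of all stretches. Among the 5 genes it was found for Ndn only; the Snrpn gene also had it, in 3 of its 4 annotated upstream stretches. GGGCGG, the GC box, occurred in Magel2 and Ube3a and in 32.7% of all stretches. CCGGAAG, the core of an ETS factor motif, occurred in Mkrn3 and in 6.91% of all stretches. No motif of the 3 was found for Peg12. Such a match is a match of letters, not a measured binding site.

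Across genes, the share over 2-fold higher varied between 1.53% and 3.27% over 5 classes of promoter CpG number. Of 2018 genes with a single annotated promoter and 5 to 9 CpGs, the class of Ndn, Peg12 and Magel2, 3.27% were over 2-fold higher and the median log2 ratio was -0.06. Of 2199 genes with 20 to 29 CpGs, the class of Ube3a, 2.36% were over 2-fold higher and the median was -0.09. Genes with 0 to 4 CpGs had the smallest share, 1.53% of 4304. The share was 2.38% among 294 genes with CGCATGCG before the start and 2.40% among 12937 genes without it. It was 2.94% among 5877 genes with GGGCGG and 1.97% among 7354 without it. For CCGGAAG it was 1.05% among 1243 genes with the letters and 2.54% among 11988 without them. These shares are across genes of the same pair of libraries and are a description.

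Ndn encodes necdin, a MAGE-family protein of postmitotic neurons that binds E2F and p53. It had 28 reads at P12 (95% interval 18.6 to 40.5) and 240 at P17 (211 to 272). Scaled to the file total, this was 2.08 CPM (1.38 to 3.01) at P12 and 9.0 CPM (7.90 to 10.2) at P17. The P17 level lay above the P12 level with no overlap of the intervals. The log2 ratio was 2.09 (1.55 to 2.73), a 4.25-fold difference, and its rank was 38 among the 21808 genes. The low P12 count sets the width of this interval: its fold bounds were 2.92 and 6.65.

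Peg12, also called Frat3, is an intronless gene whose product belongs to the GSK3-binding Frat proteins of Wnt signalling. It had 171 reads at P12 (146 to 199) and 841 at P17 (785 to 900), or 12.7 CPM (10.9 to 14.8) and 31.5 CPM (29.4 to 33.7). The levels did not overlap. Its log2 ratio was 1.31 (1.07 to 1.56), a 2.48-fold difference (2.10 to 2.94), at rank 285. Ndn and Peg12 were thus the members over 2-fold higher, 2 of 5, against the share of 2.57% of all genes; since the ratios were known when the members were chosen, nothing is read from that count.

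Magel2 encodes a further MAGE protein, which works with a ubiquitin ligase in endosomal protein recycling. It had 266 reads at P12 (235 to 300) and 768 at P17 (715 to 824), or 19.8 CPM (17.5 to 22.3) and 28.8 CPM (26.8 to 30.9). The P17 level was higher with no overlap of the intervals, by less than 2-fold. The log2 ratio was 0.54 (0.34 to 0.75), a 1.46-fold difference, at rank 1839.

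Mkrn3 encodes a makorin, a zinc finger ubiquitin ligase whose loss in people brings puberty forward. It had 34 reads at P12 (23.5 to 47.5) and 65 at P17 (50.2 to 82.8), or 2.53 CPM (1.75 to 3.53) and 2.44 CPM (1.88 to 3.11). The levels overlapped almost fully. The log2 ratio was -0.05 (-0.67 to 0.59), and it was 0.02 with TMM scaling, so no direction can be given. At this depth a difference of up to 1.51-fold higher or down to 0.628 of the P12 level lay inside the interval.

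Ube3a encodes the ubiquitin ligase lost in Angelman syndrome. It had 498 reads at P12 (455 to 544) and 817 at P17 (762 to 875), or 37.0 CPM (33.8 to 40.4) and 30.6 CPM (28.6 to 32.8). The P17 level was lower, and the intervals did not overlap. The log2 ratio was -0.27 (-0.43 to -0.11), which also lay below the all-gene median of -0.08, as did the intervals of 10.1% of genes. These reads come from chromatin DNA and measure no transcript, so they say nothing of the antisense transcript that runs over Ube3a in neurons.

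**Figure D1:**
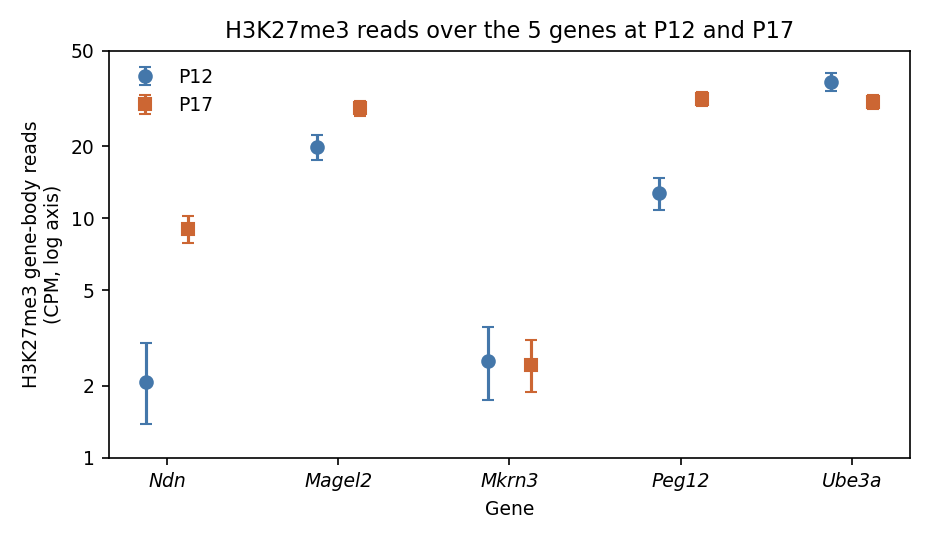
H3K27me3 gene-body reads scaled to the file total (CPM, log axis) of the 5 genes at P12 (circles) and P17 (squares), 1 library set per stage, with exact 95% Poisson intervals of the counts as bars. Ndn moved from 2.08 to 9.0 CPM and Peg12 from 12.7 to 31.5 CPM, while the bars of Mkrn3 overlap and Ube3a stood lower at P17.

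The members can be compared with each other without any scaling, since library size cancels in the ratio of 2 ratios. Ndn stood 5.22-fold above Ube3a (3.46 to 8.15), 4.46-fold above Mkrn3 (2.43 to 8.26) and 2.97-fold above Magel2 (1.95 to 4.67). Its lead over Peg12 was 1.74-fold (1.13 to 2.77). Peg12 in turn stood 3.0-fold above Ube3a (2.45 to 3.68), 2.57-fold above Mkrn3 (1.59 to 4.09) and 1.70-fold above Magel2 (1.37 to 2.13). Magel2 stood 1.76-fold above Ube3a (1.47 to 2.11). The 4 pairs with Ndn use the ratio for which Ndn was chosen, and all the ratios were known beforehand, so these values are a description. The widths of the intervals show what counting error allows. Mkrn3 could not be separated from its neighbours in this order, Magel2 (1.51-fold, 0.944 to 2.38) and Ube3a (1.17-fold, 0.746 to 1.85).

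Ndn, Magel2, Mkrn3 and Peg12 follow each other along the chromosome with no other counted gene between them. Together they had 499 reads at P12 and 1914 at P17, or 37.1 and 71.8 CPM. Of the reads over these 4 genes, Ndn held 5.61% at P12 and 12.5% at P17, and Peg12 held 34.3% and 43.9%. The share of Magel2 went from 53.3% to 40.1% and that of Mkrn3 from 6.81% to 3.40%. Within this group a larger share of the reads lay over Ndn and Peg12 at P17 and a smaller share over Magel2 and Mkrn3, which lie between them. These shares add up to the whole, so a smaller share is not a lower level: Magel2 itself went from 19.8 to 28.8 CPM, and the levels of Mkrn3, 2.53 and 2.44 CPM, overlapped.

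**Figure D2:**
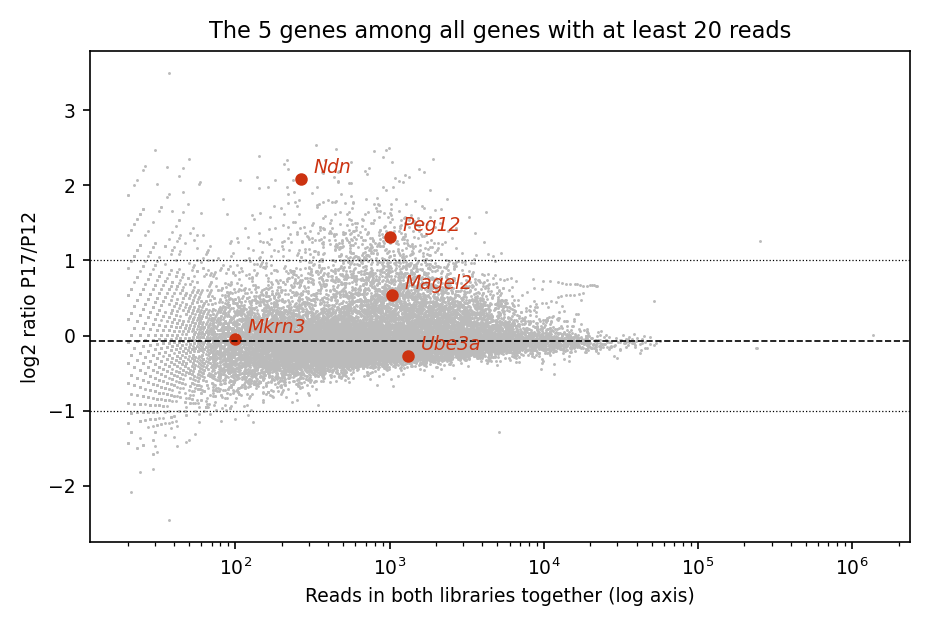
Log2 ratio P17/P12 of H3K27me3 gene-body reads against the reads in both libraries together (log axis) for 21808 genes (grey points), with the 5 genes in red; the dashed line is the all-gene median and the dotted lines mark 2-fold. Ndn lies at 2.09 on 268 reads and Peg12 at 1.31 on 1012 reads, while Mkrn3 at -0.05 rests on 99 reads.

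Depth differed between the members, and the share of genes over 2-fold higher did not rise steadily with it. Ndn, with 268 reads over both libraries, belonged to the class of 100 to under 300 reads, in which 2.07% of 3908 genes were over 2-fold higher. Peg12, Magel2 and Ube3a, with 1012, 1034 and 1315 reads, belonged to the class of 1000 reads or more, with 1.93% of 7876. Mkrn3, with 99 reads, belonged to the class of 20 to under 100 reads, with 2.36% of 2885. The class of 300 to under 1000 reads, which held no member, had 3.64% of 7139.

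Most other genes of the region stood near the all-gene median. A list of 17 genes of the mouse Prader-Willi and Angelman region and its flank, which includes the 5, was measured in full. Of these, Ndn and Peg12 were over 2-fold higher and 0 were over 2-fold lower, against 2.57% and 0.335% of all genes. The median was -0.06, and 0.02 with TMM or median-of-ratios scaling, which moved the all-gene median from -0.08 to 0.00. Among the 12 that are not members, 4 had intervals above the all-gene median and 1 below it, against 21.2% and 10.1% of all genes.

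Snurf and Snrpn share the transcription unit whose promoter holds the imprinting centre of the region. Snurf, the upstream reading frame, had 150 and 400 reads and a log2 ratio of 0.43 (0.15 to 0.71). Snrpn, which encodes a spliceosomal protein and overlaps Snurf, had 1175 and 2133 reads and a ratio of -0.13 (-0.23 to -0.02). The shorter Snurf entry thus stood above the typical gene and the longer Snrpn entry did not; reads in the shared stretch cannot be assigned to one of them. Ipw, a noncoding transcript of the same unit, stood at -0.07 (-0.25 to 0.11). The 3 Snord116 entries, small nucleolar RNA genes, had identical counts of 159 and 289 reads and a ratio of -0.12 (-0.41 to 0.16), so they count as 1 measurement.

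On the far side of Ube3a lie genes that are mostly not imprinted. Atp10a, a phospholipid flippase gene, stood at 0.01 (-0.07 to 0.09). The GABA-A receptor subunit genes Gabra5 and Gabrg3 stood at -0.06 (-0.16 to 0.04) and -0.07 (-0.11 to -0.02). The pigmentation gene Oca2 stood at -0.08 (-0.15 to -0.01), and the ubiquitin ligase gene Herc2 at -0.29 (-0.38 to -0.19). The magnesium transporter genes Nipa1 and Nipa2 stood at -0.07 (-0.27 to 0.13) and -0.29 (-0.55 to -0.02), the actin regulator gene Cyfip1 at 0.28 (0.16 to 0.40) and the gamma-tubulin complex gene Tubgcp5 at -0.17 (-0.38 to 0.04). None of these genes came near the ratios of Ndn and Peg12. Here and for the neighbours below, a ratio covers all reads of a gene body. A difference confined to part of a gene would be diluted by the remaining reads, and parts of gene bodies were not measured.

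Gene order from the GRCm38 gene table, used for order only, placed 42 other counted genes between the members or among the 10 nearest counted genes on each side. Of these, 30 had at least 20 reads, and the other 12 were microRNA and small nucleolar RNA genes. The Snord116 entries with identical counts, and the overlapping Snurf and Snrpn, each count separately among the 30. Over 2-fold higher were 0 of the 30 and over 2-fold lower were 0, near the background of 2.57% and 0.335% of all genes. Their median was -0.08 and their range -0.49 to 0.99. The highest was Klf13, a zinc finger transcription factor gene beyond Peg12, with 623 and 2450 reads and a log2 ratio of 0.99 (0.86 to 1.12). It passed 2-fold with TMM scaling, at 1.06. The genes next to the group were not over 2-fold higher. A330076H08Rik, the nearest tested gene before Ndn, stood at -0.09 (-0.30 to 0.13). Chrna7, an acetylcholine receptor subunit gene after Peg12, stood at 0.16 (0.07 to 0.26). Its interval lay above the all-gene median, as did those of 21.2% of genes.

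**Figure D3:**
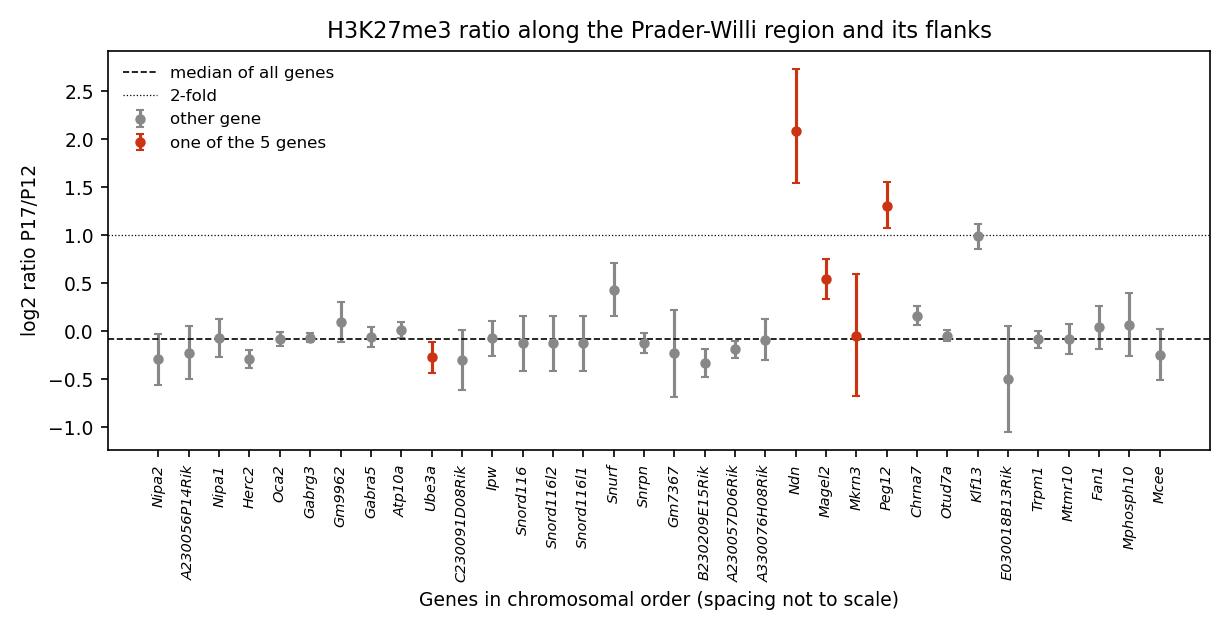
Log2 ratio P17/P12 of H3K27me3 gene-body reads for genes in chromosomal order, evenly spaced and not to scale, with exact 95% counting intervals as bars; the 5 genes are red, other genes with at least 20 reads grey (1 of them is not shown), the dashed line is the all-gene median and the dotted line 2-fold. Ndn at 2.09 and Peg12 at 1.31 stand above the dotted line, and the highest of the other genes is Klf13 at 0.99.

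Relatives of the members elsewhere in the genome were measured next, 15 genes in all. Frat1, which encodes a GSK3-binding protein like Peg12, had 196 and 1135 reads, or 14.6 and 42.6 CPM. Its log2 ratio of 1.54 (1.33 to 1.77) was close to that of Peg12. Frat2, the other member of the family, had 111 and 156 reads and a ratio of -0.49 (-0.86 to -0.13), which lay below the typical gene. The family therefore did not share one ratio, and since Frat genes resemble each other, reads in stretches they share could be assigned to either copy.

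No MAGE relative of Ndn and Magel2 was over 2-fold different. The 9 measured ones ran from 0.44 (-0.46 to 1.45) at Magee2 to -0.48 (-1.18 to 0.21) at Magee1, mostly on few reads. Mageh1 stood at 0.24, Ndnl2, the gene of a subunit of the SMC5/6 complex, at 0.22, Maged1 at 0.01 and Maged2 at -0.04. Mageb4 stood at -0.31, Mageb16 at -0.35 and Magea4 at -0.42. Maged1 had 28 reads at P12 and 56 at P17. The makorin genes Mkrn1 and Mkrn2 stood at -0.30 (-0.56 to -0.04) and -0.18 (-0.46 to 0.10), and the HECT ligase genes Ube3b and Ube3c, relatives of Ube3a, at 0.06 (-0.11 to 0.23) and -0.13 (-0.25 to -0.01). Of the 15 relatives, 1 was over 2-fold higher and 0 were lower, beside 2.57% and 0.335% of all genes, with a median of -0.13.

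Imprinted genes outside the region held 4 of 39 over 2-fold higher and 0 over 2-fold lower, beside 2.57% and 0.335% of all genes, with a median of 0.03. All 4 belong to the 20 measured genes expressed from the paternal copy. Nap1l5, a small intronless gene lying in an intron of another gene, had 33 and 219 reads and a log2 ratio of 1.72 (1.21 to 2.32), near that of Ndn. Peg10, a gene derived from a retrotransposon, went from 194 to 906 reads, at 1.23 (1.01 to 1.47). Nnat, which encodes the membrane protein neuronatin, went from 36 to 164 reads, at 1.19 (0.67 to 1.76), and Mest, a hydrolase-like gene of mesoderm, from 559 to 2383, at 1.10 (0.97 to 1.24). Zrsr1, an intronless splicing factor gene, was lowest with 61 and 74 reads and a ratio of -0.70 (-1.22 to -0.19). The paternally expressed genes thus did not share one ratio.

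Among 19 measured maternally expressed genes 0 were over 2-fold higher and 0 lower, beside shares of 2.57% and 0.335% of all genes, so counts of 0 are near the background. Phlda2, a growth-restraining gene of the placenta, was highest at 0.75 (0.53 to 0.98), and Commd1, a copper homeostasis gene, lowest at -0.33 (-0.46 to -0.21). The median was 0.03 for this group and 0.06 for the paternally expressed one. Whether the groups differ was not tested. Nesp, listed among the maternally expressed genes, had no entry under that symbol in the count files.

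**Figure D4:**
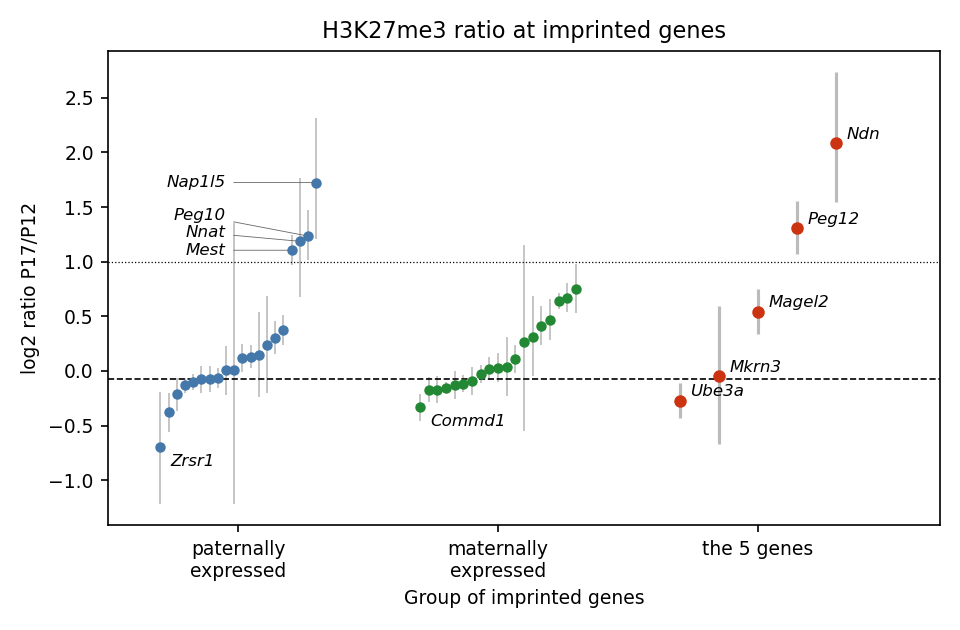
Log2 ratio P17/P12 of H3K27me3 gene-body reads for 20 paternally expressed genes outside the region, 19 maternally expressed genes and the 5 genes, each group sorted by ratio, with exact 95% counting intervals as bars; the dashed line is the all-gene median and the dotted line 2-fold. Nap1l5, Peg10, Nnat and Mest stand above the dotted line beside Ndn and Peg12, and no maternally expressed gene does.

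Genes most like Ndn were taken as those with a P12 level within 1.5-fold of its own, not adjusted for length and so a match of read depth, and the nearest log2 ratio. Of 1713 genes in that range of levels, Ndn included, 3.74% were over 2-fold higher, and 10 had a ratio at least that of Ndn. The 5 nearest were Gpx1, the gene of an antioxidant peroxidase, at 2.07, 1810012K16Rik at 2.07 and Bmyc, a relative of the Myc genes, at 2.07, followed by Gm4349 at 2.13 and Galt, a galactose metabolism gene, at 2.16. Likeness here rests on 1 level and 1 ratio from 2 libraries. Gpx1 had 25 and 212 reads and Bmyc 27 and 228, a likeness that the choice itself fixes.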

How the data were processed

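Chromatin immunoprecipitation and sequencing reads were aligned to mm9; Bowtie, SAMtools and HTSeq are named without role or version, per the submitters' processing notes. The deposited files hold raw read counts per gene body, made with multiBamCov per the file names, with no recorded input subtraction. Depth was 13462873 reads at P12 and 26664736 at P17. Peak lists were not used here, since no mm9 annotation was used to place genes on them.

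Counts were scaled to the file total. Log2 ratios used a pseudocount of 1 read, adjusted for library size, and a minimum of 20 reads; the 146 symbols with several entries were left out of ratios. Intervals are Clopper-Pearson (ratios), Poisson (counts) and conditional (ratios of ratios), computed with SciPy 1.17.1. The intervals of the ratios were tried on simulated Poisson counts, the error that they assume, so variation between libraries was not tested. A gene was counted as over 2-fold when its interval also excluded a ratio of 1. Alternatives were edgeR 4.0.16 TMM factors, DESeq2 1.42.0 median-of-ratios factors, totals without multicopy symbols and the 20 entries with most P12 reads, other pseudocounts and read minimums. Promoter letters came from RefSeq; all 5 members matched, and 15 of the 17 region genes.

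A gene of the region list is counted with that list but not reported here by name. Members and lists were chosen with earlier results of these data known. Named genes were the members, the region and relatives lists, the imprinted genes over 2-fold and the extremes of that list, and the 5 genes nearest Ndn. Neighbours, Ipw, Snord116, Klf13, A330076H08Rik and Chrna7 were named after their values were seen.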

Additional observations from a re-analysis of the deposited data

How the results depend on the processing

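All 5 members kept their call under the 5 scaling and pseudocount alternatives: Ndn ranged from 1.99 to 2.16, Peg12 from 1.30 to 1.39, Magel2 from 0.54 to 0.62, Ube3a from -0.28 to -0.19 and Mkrn3 from -0.05 to 0.03. The same was checked for 91 other genes, not all named here: the region, relatives and imprinted lists, the tested neighbours and the genes nearest Ndn. Of these, only Klf13 changed its call, from 0.99 to 1.06 with TMM and 1.07 with median-of-ratios factors. The median of the 17 region genes changed sign, from -0.0577 to 0.0176 with TMM factors and 0.0211 with median-of-ratios factors, as scaling raised all genes alike. Genes over 2-fold higher numbered 561 and ranged from 493 to 678; those over 2-fold lower numbered 73, but 35 with a pseudocount of 5 reads and 3 with at least 100 reads required. No paired analysis was possible because the P17 file pools its 2 replicates and P12 has 1 library, so no replicate could be left out either. Counting error limits Ndn and Mkrn3, with 28 and 34 reads at P12.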
